A study of Mus musculus with 4 samples.

Results

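The intracellular FGF homologous factors (FHFs) are the products of 4 genes, Fgf11 (also named FHF3), Fgf12 (FHF1), Fgf13 (FHF2) and Fgf14 (FHF4). They were chosen by name among the 55421 genes listed in each count table, and all 4 were measured and passed the expression filter that left 17144 genes for testing. The cells came from the prefrontal cortex (PFC) of wild-type C57BL/6 mice at postnatal day 0, and were dissociated with papain and grown for 10 days in neurobasal medium with B27 supplement. Total RNA was sequenced in 4 libraries, 2 from cultures that received FGF2 at 5 ng/mL (FGF2) and 2 from cultures that did not (no FGF2). FGF2 is a secreted growth factor for neural progenitors, and the comparison asks how its presence in the medium goes with the RNA of the culture. The libraries of a group are numbered B1 and B2 and are called replicates 1 and 2 here. The study's methods give technical replicates for all bulk samples except those of a pair of human fetal ages, without naming the mouse cultures, and no source says that the libraries came from separate cultures or animals. The p-values therefore measure the spread between libraries, which may be technical only. No cell was sorted, so the cultures hold neurons and glia together.

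FHFs share the fold of the fibroblast growth factors but lack a secretion signal, stay inside the cell and are not ligands of the FGF receptors in the classical way. They bind the cytoplasmic tail of voltage-gated sodium channel alpha subunits, change how the channels inactivate and are found with them at the axon initial segment, where action potentials start. They also bind a JNK scaffold protein, and alternative first exons give each gene several isoforms with different N-termini, which a count per gene cannot tell apart.

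All 4 genes lie on the minus strand of mm10. Fgf12 (ENSMUSG00000022523; chr16:28160098-28753068), Fgf13 (ENSMUSG00000031137; chrX:59062145-59568071) and Fgf14 (ENSMUSG00000025551; chr14:123977907-124677127) are long genes of 593.0, 505.9 and 699.2 kb, of which exons make up 1.05%, 0.794% and 0.598%. Fgf11 (ENSMUSG00000042826; chr11:69796068-69801857) spans 5.8 kb, and its exons make up 52.6%. GENCODE M21 lists 2 coding transcripts for Fgf11, 4 for Fgf12, 6 for Fgf13 and 2 for Fgf14. None of the 50-base stretches of their transcripts occurs in another member, so exact matches of that length did not mix reads between the 4 genes. Stretches found in other genes made up 0.777% for Fgf11, 0.374% for Fgf12, 0.747% for Fgf13 and 3.05% for Fgf14. Those of Fgf14 come from 220 exon bases shared with the antisense gene Gm28932, which held 1 to 3 counts in each library. The strand setting of the counting is not given in the sources used here, so reads of the 2 genes cannot be told apart within those bases.

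The start sites of these genes differ in the sequence before them. The RefSeq (GRCm38.p6) promoter set used here holds 10 windows of 250 bases upstream of a start. Of these, 4 belong to Fgf12, 4 to Fgf13 and 1 each to Fgf11 and Fgf14. The set does not hold every start. RefSeq extends Fgf11 to position 69802944 and Fgf14 to 124677686, and their windows lie inside these ends. Shown here are the window of the most upstream Fgf12 start, because Fgf12 had the largest fold difference of the 4 genes, and 2 windows of Fgf13, the FHF with the most RNA, whose alternative starts are unlike each other. All 3 are free of annotated GENCODE exons of the FHF genes, while exons of other genes were not checked. They are written 5′ to 3′ on the minus strand, with the GC box (GGGCGG on either strand) in capitals.
Fgf12 upstream start, chr16:28753244-28753493: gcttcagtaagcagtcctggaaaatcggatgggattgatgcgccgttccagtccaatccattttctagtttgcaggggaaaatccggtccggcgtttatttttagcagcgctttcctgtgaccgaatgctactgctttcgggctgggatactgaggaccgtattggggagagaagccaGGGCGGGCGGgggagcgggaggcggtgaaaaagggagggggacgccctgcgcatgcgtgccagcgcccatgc
Fgf13 upstream start, chrX:59585573-59585822: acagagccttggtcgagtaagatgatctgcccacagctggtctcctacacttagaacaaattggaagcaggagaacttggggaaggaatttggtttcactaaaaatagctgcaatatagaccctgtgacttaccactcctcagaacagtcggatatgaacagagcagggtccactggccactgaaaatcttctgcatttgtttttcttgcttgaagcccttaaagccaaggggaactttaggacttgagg
Fgf13 inner start, chrX:59134437-59134686: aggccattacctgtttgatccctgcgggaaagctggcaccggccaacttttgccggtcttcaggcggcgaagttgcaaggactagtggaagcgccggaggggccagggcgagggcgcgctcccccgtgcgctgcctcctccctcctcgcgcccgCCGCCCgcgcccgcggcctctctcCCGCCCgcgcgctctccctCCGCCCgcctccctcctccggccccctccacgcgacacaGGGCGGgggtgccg

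The Fgf12 window is 58.4% GC and holds 2 overlapping GC boxes. The upstream window of Fgf13 is 45.6% GC with no GC box and 2 CpG sites, whereas the inner window is 74.4% GC with 4 GC boxes and 31 CpG sites. The median GC content of all 32851 promoter windows is 52.4%. A GC box is present in 6 of the 10 FHF windows and in 32.7% of all windows, and an AP-1 site (TGANTCA) in 2 of 10 and in 6.75%. An E-box (CANNTG) is present in 5 of 10 windows and in 66.2% of all, a CRE half-site (TGACG) in 1 of 10 and in 17.8%, and the ETS core (GGAA) in 10 of 10 and in 93.4%. Both strands were searched. The windows with an AP-1 site, of Fgf12 and Fgf13, overlap annotated exons of their own gene. So do some of the windows with a GC box, that of Fgf14 among them, so the counts are not of upstream sequence alone. Windows of 1 gene share a locus, so these counts are a description of letters and not of bound factors.

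Across the 4 libraries, the total count on genes was 9166432 and 9907613 with FGF2 and 10460236 and 10799886 without FGF2. A floor of 3 counts corresponds to 0.277 to 0.331 CPM (each count divided by the TMM-adjusted size of its library), far below every FHF. Of the tested genes, 3541 were higher and 3408 lower with FGF2 by the quasi-likelihood test of edgeR at an adjusted p-value of 0.05, and the median log2 fold change of all of them was -0.001. Neuronal markers were present in all libraries. Of 4 endothelial markers, 2 passed the expression filter. Among them, Kdr was counted 12 and 20 times with FGF2 and 24 and 46 times without FGF2. Cldn5, another of the 4, was at 0 counts in each library.

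All 4 FHF genes had less RNA in both FGF2 libraries than in both no FGF2 libraries. Fgf12 fell to 71.0% (95% interval 64.5% to 78.0%) of its level without FGF2, Fgf11 to 79.4% (67.7% to 93.0%) and Fgf13 to 83.9% (76.4% to 92.2%). Fgf14 stood at 83.2% (70.4% to 98.3%) and did not pass the test. Thus 3 of the 4 members were called lower, while 19.9% of all tested genes were called lower and 20.7% higher. A complete separation in the same direction, seen for 4 of 4 members, was seen for 33.4% of tested genes. In bulk RNA, fewer cells of a type and less FHF RNA per cell cannot be told apart.

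**Figure D1:**
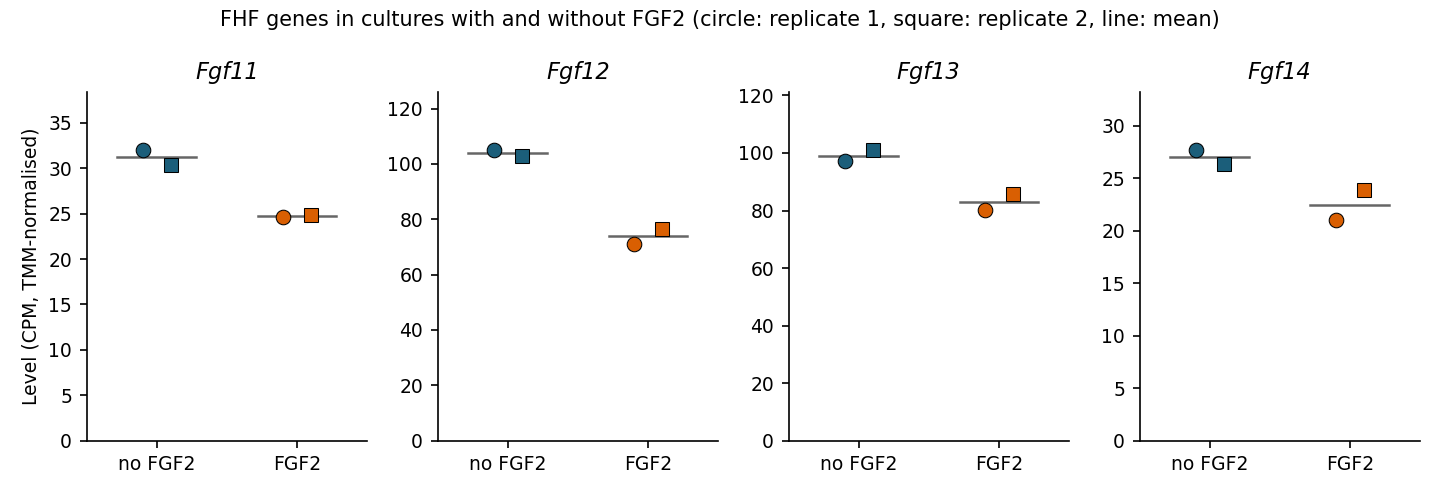
Level of each FHF gene in CPM (vertical axis, from 0) in the 2 no FGF2 and the 2 FGF2 libraries. Circles are replicate 1, squares replicate 2 and lines the mean of a group. In each panel both FGF2 points lie below both no FGF2 points, with the widest gap for Fgf12 and the narrowest relative to its spread for Fgf14.

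Fgf12, which is mutated in an early-onset epileptic encephalopathy, was counted 645 and 753 times with FGF2 and 1101 and 1120 times without FGF2. In CPM these are 71.1 and 76.6 with FGF2 against 105 and 103 without FGF2. The no FGF2 libraries were nearly alike, and the 2 FGF2 libraries lay clearly below them. The log2 fold change was -0.49 ± 0.07 (SE) with an adjusted p-value of 1.9e-11 (edgeR), and the study's own tool, DESeq2, gave -0.50 with an adjusted p-value of 9.8e-06. No alternative and no left-out library ended this call.

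Fgf13 is an X-linked gene whose product also binds microtubules and is known from the migration of cortical neurons. It was counted 729 and 845 times with FGF2 and 1020 and 1095 times without FGF2, or 80.3 and 85.9 CPM against 97.1 and 101 CPM. The distance between the groups was about as wide as in Fgf14 in relative terms, but rested on more reads. The log2 fold change was -0.25 ± 0.07 (SE) with an adjusted p-value of 0.001 (edgeR), and the adjusted p-value of DESeq2 was 0.045.

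Fgf11, the shortest of the 4 genes, was counted 223 and 245 times with FGF2 and 336 and 329 times without FGF2. Its levels were 24.6 and 24.9 CPM with FGF2 and 32.0 and 30.4 CPM without FGF2. The replicates were close to each other and the groups did not overlap. Its log2 fold change was -0.33 ± 0.12 (SE) with an adjusted p-value of 0.013 (edgeR). DESeq2 gave nearly the same size, -0.34, but an adjusted p-value of 0.17, and without no FGF2 replicate 1 the adjusted p-value of edgeR was 0.12 at a log2 fold change of -0.30.

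Fgf14, the gene mutated in spinocerebellar ataxia 27, was counted 191 and 235 times with FGF2 and 291 and 286 times without FGF2. Its levels were 21.0 and 23.9 CPM with FGF2 and 27.7 and 26.4 CPM without FGF2. FGF2 replicate 2 came near the no FGF2 libraries, while FGF2 replicate 1 was lowest. The log2 fold change was -0.27 ± 0.12 (SE) with an adjusted p-value of 0.072 (edgeR) and 0.36 by DESeq2. Without FGF2 replicate 2 it was -0.36 with an adjusted p-value of 0.042, and without FGF2 replicate 1 it was -0.18 with an adjusted p-value of 0.33. With a GC content and length offset per library it was -0.41 with an adjusted p-value of 0.0028. The longest Fgf14 transcript is 39.3% GC, and 6.4% of tested genes have a lower GC content.

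DESeq2 called 2 of the 4 members lower, Fgf12 and Fgf13, and 11.2% of all its tested genes lower. In all 4 genes FGF2 replicate 1 was below FGF2 replicate 2, though for Fgf11 only by 24.6 against 24.9 CPM. The share of all tested genes with this order was not computed, so whether the order is particular to the FHF genes was not tested. Under every processing tried, each of the 4 log2 fold changes was negative, from -0.52 to -0.49 for Fgf12, -0.28 to -0.25 for Fgf13, -0.36 to -0.31 for Fgf11 and -0.41 to -0.26 for Fgf14 with all libraries kept.

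**Figure D2:**
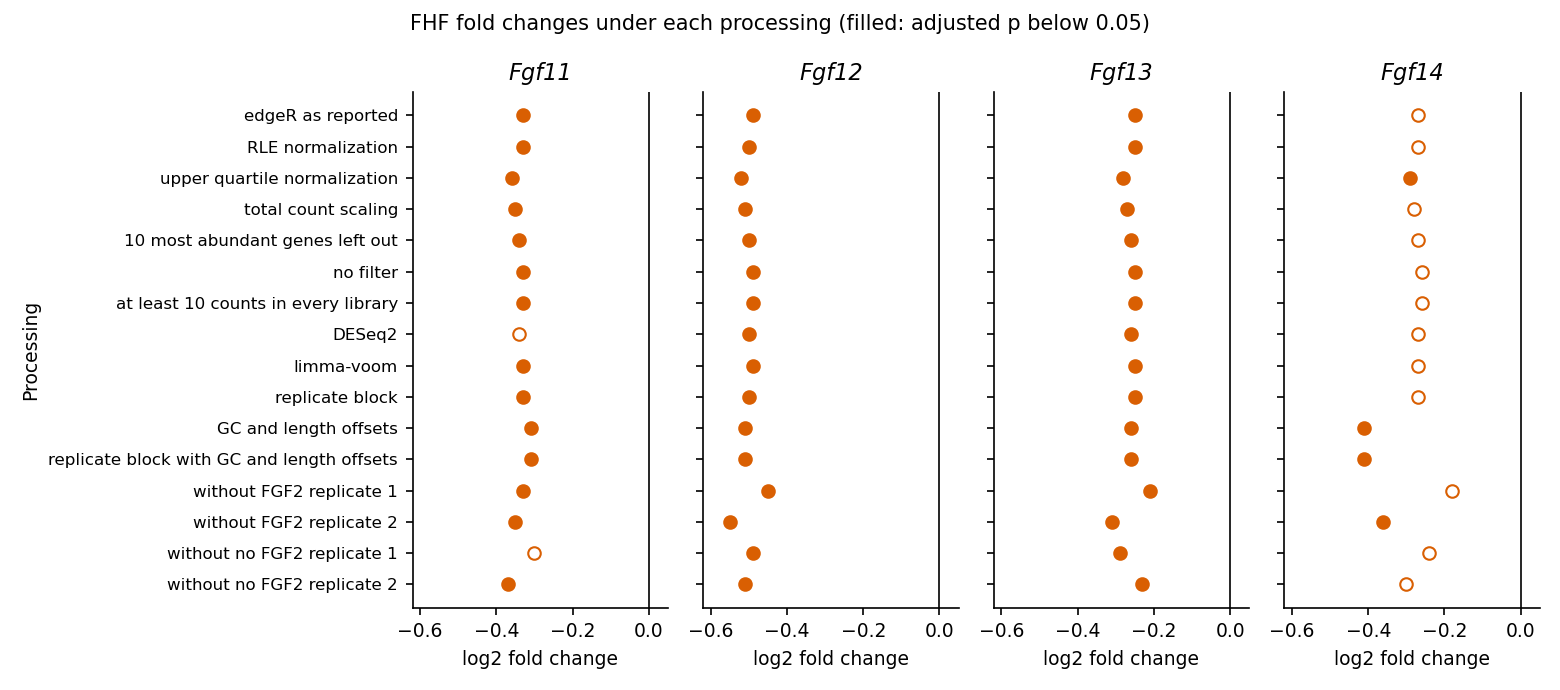
Log2 fold change of each FHF gene, FGF2 over no FGF2 (horizontal axis), under each processing (vertical axis). Points are filled where the adjusted p-value is below 0.05. Every point lies left of 0, all points of Fgf12 and Fgf13 are filled, Fgf11 is open with DESeq2 and without no FGF2 replicate 1, and Fgf14 is filled in 4 settings.

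Per kb of exon, the order of the levels was Fgf13, Fgf12, Fgf11 and Fgf14 in every library. Fgf13 had 20.7 ± 0.981 CPM per kb with FGF2 and 24.7 ± 0.714 without FGF2 (SD, n = 2 libraries). Fgf12 had 11.9 ± 0.624 and 16.8 ± 0.153, Fgf11 8.13 ± 0.0777 and 10.2 ± 0.37, and Fgf14 5.37 ± 0.481 and 6.47 ± 0.216. Neighbours in this order were further apart than their SD in both groups.

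Fgf13 thus made up 44.9% ± 0.0211 of the summed FHF RNA per kb with FGF2 and 42.4% ± 1.25 without FGF2 (SD, n = 2). The share of Fgf12 was 25.8% ± 0.143 with FGF2 and 28.9% ± 0.251 without FGF2. Fgf11 held 17.7% ± 0.66 and 17.6% ± 0.628, and Fgf14 11.6% ± 0.497 and 11.1% ± 0.367. The shares of Fgf11 and Fgf14 overlapped between the groups, that of Fgf12 was lower in both FGF2 libraries and that of Fgf13 higher. With the longest transcript as the length, Fgf13 was at 50.8% and 48.0% and Fgf11 at 12.4% in both groups, in the same order of genes.

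Within a library, where scaling cancels, the pairs that separated the groups were those with Fgf12. The log2 ratio of Fgf12 to Fgf13 counts was -0.18 and -0.17 with FGF2 and 0.11 and 0.03 without FGF2, so that Fgf12 had fewer counts than Fgf13 in both FGF2 libraries and more in both no FGF2 libraries. The ratio of Fgf12 to Fgf14 was 1.76 and 1.68 with FGF2 against 1.92 and 1.97, and that of Fgf11 to Fgf12 was -1.53 and -1.62 against -1.71 and -1.77. These 3 pairs did not overlap between the groups, with differences of -0.24, -0.23 and 0.16. The 3 pairs without Fgf12 overlapped, with differences of -0.08 for Fgf11 to Fgf13, -0.06 for Fgf11 to Fgf14 and 0.02 for Fgf13 to Fgf14. With 2 libraries against 2, the exact two-sided permutation test cannot give less than 0.333, which is its value for the 3 separated pairs, so this test cannot pass a threshold of 0.05 here.

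The FHF levels were next set against the RNA of neurons, the cells in which FHFs are chiefly found. Of 12 pan-neuronal markers, 10 were lower and 1 higher with FGF2, with a median log2 fold change of -0.46, and their summed level was 3180 and 3230 CPM with FGF2 and 4410 and 4380 CPM without FGF2. Tubb3, a neuronal tubulin, fell by 1.10 on the log2 scale and Map2, of dendritic microtubules, fell by 0.32, while the neurofilament gene Nefl was higher by 0.38 (edgeR adjusted p-value 0.0014, DESeq2 0.076). Of 10 inhibitory neuron (IN) markers, 10 were lower, with a median of -0.69, and of 10 excitatory neuron (EN) markers 5 were lower and 0 higher, with a median of -0.39. DESeq2 called 8 of the pan-neuronal, 8 of the IN and 4 of the EN markers lower and 0 of them higher. The median of the 4 FHF genes was -0.30.

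Glial lists moved the other way. Of 9 astrocyte markers, 7 were higher and 1 lower (median 0.42), with summed levels of 12200 and 12100 CPM with FGF2 and 7360 and 7310 CPM without FGF2. All 9 tested oligodendrocyte lineage markers of 10 listed were higher (median 2.05), with 1860 and 1870 CPM against 560 and 569 CPM. Of 6 neural progenitor markers 2 were higher and 2 lower (median -0.02). The part of these cell type markers in the FHF values was not tested.

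Relative to the mean log2 level of the pan-neuronal markers in the same library, 3 of the 4 FHF genes were higher with FGF2. The markers themselves had a median log2 fold change of -0.46, against -0.001 for all tested genes. A gene without a change would thus also be higher on this scale. The share of all tested genes that were higher on it was not computed. Fgf13 lay at -0.55 and -0.44 log2 units with FGF2 and at -0.73 and -0.62 without FGF2, a difference of 0.18. Fgf14 lay at -2.48 and -2.28 against -2.54 and -2.55, a difference of 0.16, and Fgf11 at -2.26 and -2.22 against -2.33 and -2.35, a difference of 0.10. For these 3 the groups did not overlap (exact permutation p = 0.333, the smallest possible). Fgf12 lay at -0.73 and -0.60 against -0.62 and -0.59, groups that overlapped (difference -0.06, exact permutation p = 0.667). The sizes depended on the markers. With markers of at least 50 CPM the differences were 0.249 for Fgf11, 0.327 for Fgf13 and 0.312 for Fgf14, and that of Fgf12 changed sign to 0.085. Against EN and IN markers they were 0.343, 0.421 and 0.406, and 0.179 for Fgf12. The sizes for Fgf14 and Fgf12 also moved with the FGF2 library left out. Without FGF2 replicate 1 the difference of Fgf14 was 0.264 and that of Fgf12 about 0, and without FGF2 replicate 2 they were 0.065 and -0.124.

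**Figure D3:**
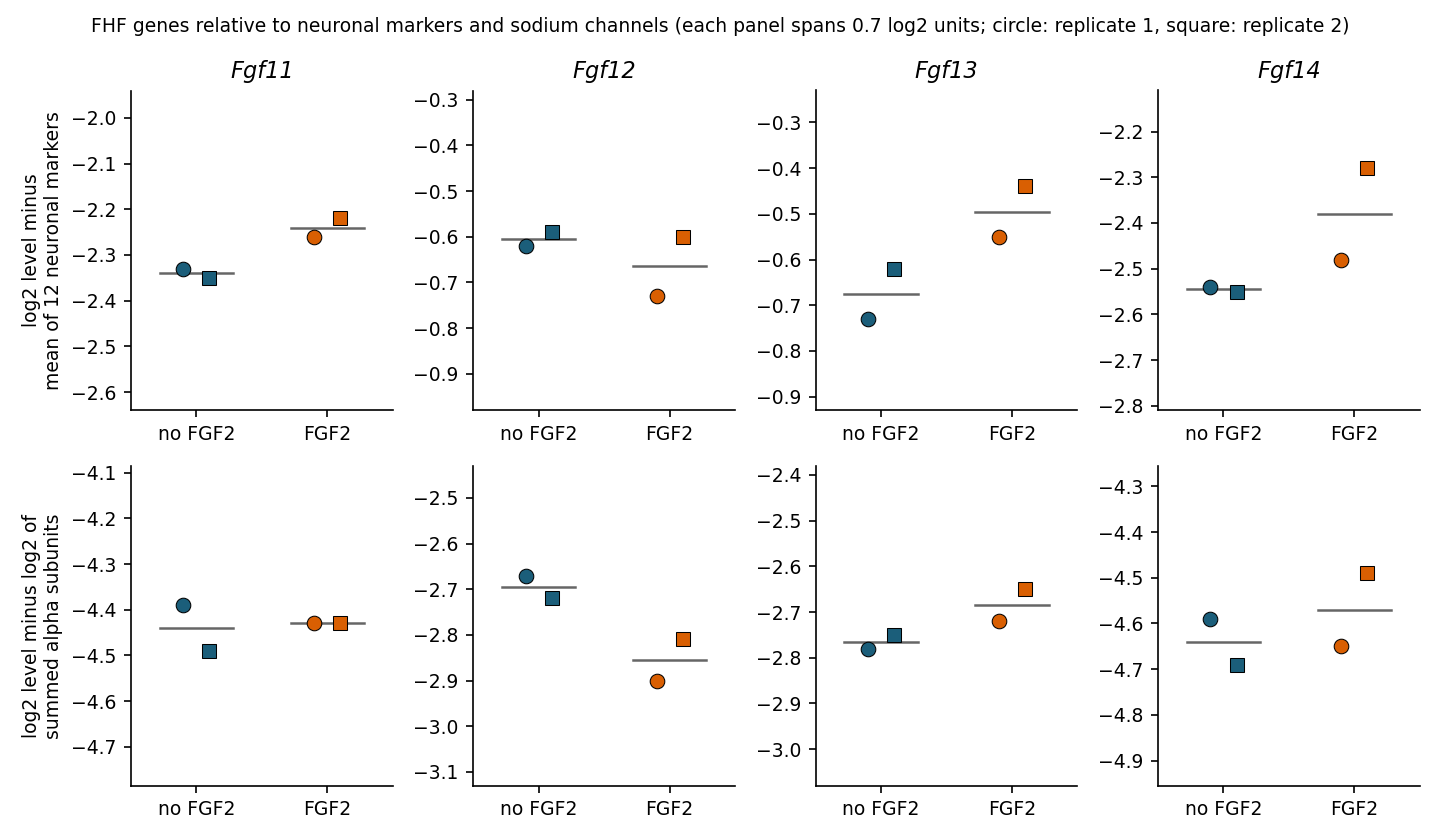
Log2 level of each FHF gene relative to the mean of 12 pan-neuronal markers (upper row) and to the summed sodium channel alpha subunits (lower row) in each library. Circles are replicate 1, squares replicate 2 and lines the mean of a group; every panel spans the same number of log2 units. Against neuronal markers the FGF2 points of Fgf11, Fgf13 and Fgf14 lie above the no FGF2 points and those of Fgf12 overlap, and against alpha subunits those of Fgf12 lie below.

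The alpha subunits that FHFs bind were lower with FGF2 in 3 of the 5 that could be tested of 9 considered, and higher in 0 (median log2 fold change -0.31). Among the subunits of central neurons, Scn2a fell from 258 ± 8.58 to 210 ± 2.11 CPM (SD, n = 2), Scn8a from 235 ± 3.84 to 190 ± 8.35 CPM and the developmental Scn3a from 142 ± 1.83 to 99.1 ± 8.12 CPM. Scn1a, at 33.1 ± 3.65 CPM with FGF2 and 35.1 ± 1.94 without FGF2, and Scn9a, at 1.42 ± 0.293 and 2.76 ± 0.538, did not pass the test. The 3 beta subunits considered were each lower (Scn2b -0.61, Scn3b -0.32 and Scn4b -1.19 log2 fold change, edgeR). Scn4b was not called by DESeq2 (adjusted p-value 0.16), and without no FGF2 replicate 2 it was at -0.69 with an adjusted p-value of 0.39.

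Set against the summed alpha subunits, at 530 and 539 CPM with FGF2 and 669 and 682 CPM without FGF2, the FHF genes took both directions. Fgf12 was lower relative to them with FGF2, at -2.90 and -2.81 log2 units against -2.67 and -2.72 (difference -0.16, exact permutation p = 0.333). Fgf13 was higher relative to them, at -2.72 and -2.65 against -2.78 and -2.75 (difference 0.08, exact permutation p = 0.333), with 0.047 without FGF2 replicate 2 and 0.121 without FGF2 replicate 1. Fgf11 and Fgf14 overlapped between the groups, with differences of 0.01 and 0.07 that each changed sign with a library left out.

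The JNK scaffold genes considered, Mapk8ip1 and Mapk8ip2, both fell, by 0.24 and 0.45 on the log2 scale. Of 8 genes of the axon initial segment, 4 were lower and 2 higher with FGF2. Those lower were Ank3 (-0.51), which encodes the scaffold ankyrin-G, Sptbn4 (-0.98), its spectrin partner, Trim46 (-0.60) and the adhesion gene Nrcam (-0.25). Nfasc, the adhesion gene neurofascin that glia also express, rose by 1.00 on the log2 scale and Kcnq3 by 0.37. Kcna1 was at -0.22 and Kcna2 at 0.08, neither past the test. The summed level of the list was 2530 and 2480 CPM with FGF2 and 2340 and 2390 CPM without FGF2.

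**Figure D4:**
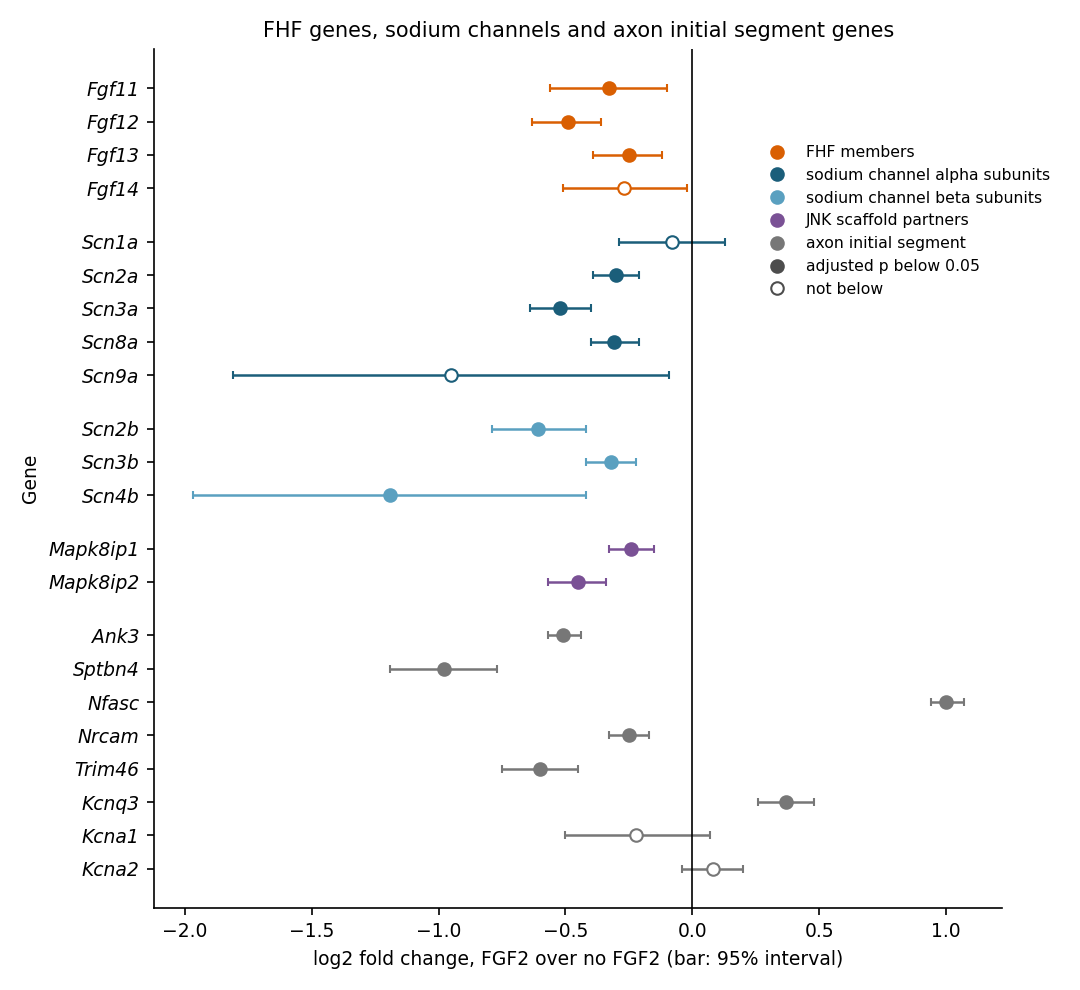
Log2 fold change, FGF2 over no FGF2 (horizontal axis), with its 95% interval for the FHF genes, the tested sodium channel subunits, the JNK scaffolds and the axon initial segment genes (vertical axis). Filled points have an edgeR adjusted p-value below 0.05. All FHF points lie between -0.49 and -0.25, within the span of the alpha subunits, and Nfasc and Kcnq3 are the filled points above 0.

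The FHF genes held most of the FGF family's RNA. Over the 22 family genes, their share per kb of exon was 71.1% and 72.2% with FGF2 and 71.9% and 71.5% without FGF2, groups that overlapped. The FHF sum was 46.1 CPM per kb with FGF2 and 58.2 without FGF2 on average, and that of the secreted FGFs 18.2 and 23.0. Within the secreted FGFs, Fgf2 made up 13.4% of the family's RNA with FGF2 and 1.36% without FGF2, and Fgf1 9.14% and 20.0%. Of 5 tested secreted FGFs, Fgf1 (-1.47 log2 fold change), Fgf9 (-0.65) and Fgf18 (-1.23) were lower and Fgf2 (2.97) higher, while Fgf9 and Fgf18 were not called by DESeq2 (adjusted p-values 0.15 and 0.26). Fgf10, at -0.57, did not pass the test, and 6 of the 18 secreted genes had at most 3 counts in every library.

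**Figure D5:**
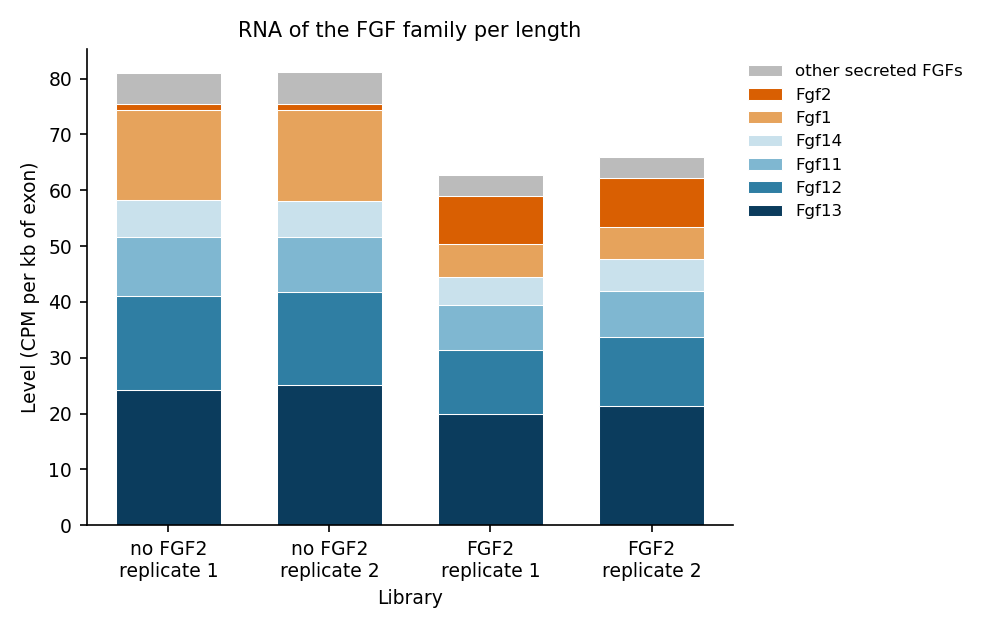
RNA of the FGF family in CPM per kb of exon (vertical axis, from 0), stacked by gene in each of the 4 libraries. Blue segments are the 4 FHF genes, orange segments Fgf1 and Fgf2 and the grey segment all other secreted FGFs. The blue part is taller without FGF2 but takes 71.1% to 72.2% of every bar, while Fgf1 and Fgf2 change places in size.

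By their profile over the 4 libraries, the genes most like Fgf12 were Mthfd2, Stau2 and Slc2a3, at root mean square distances of 0.009, 0.011 and 0.012 on the centred log2 CPM scale. Those most like Fgf11 were Tuba1c, Pitpnm1 and Strbp (0.0031, 0.0044 and 0.005), and those most like Fgf13 were Thoc5, Pcdhb16 and Qsox2 (0.0091, 0.01 and 0.013). Fgf14 was most like Grm5, Ttbk1 and Mrps14 (0.0095, 0.0095 and 0.01). Among the 12651 genes with a mean of at least 5 CPM, 189 lay within 0.05 of Fgf12, 225 of Fgf14, 445 of Fgf13 and 458 of Fgf11, so a close profile over 4 libraries was common.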

How the data were processed

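Raw counts per gene were deposited for each library, without normalization. According to the methods and the submitters' processing notes, the authors mapped reads (150 bases, paired) to mm10 with HISAT2 2.1.0, kept those with a mapping quality of at least 20 and counted them with HTSeq 0.11.2. The mapping quality filter removes most multi-mapping reads. The annotation release and strand setting are not given in the sources used here. Of 55421 identifiers, 55240 matched GENCODE M21, which gave names, positions and lengths. Read pairs in no feature were 43.2% to 45.9% and ambiguous pairs 1.47% to 1.76%, and these tallies were left out. Reads in introns or past the annotated end are not in the counts, and RefSeq extends the 3′ ends of Fgf12 and Fgf14 by 2315 and 3466 bases.

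Differences were tested by quasi-likelihood in edgeR 4.0.16 (R 4.3.3, TMM, expression filter by group, robust fit), with Benjamini-Hochberg adjustment over 17144 genes, a threshold of 0.05 and treatment as the factor. Other settings tried were upper quartile, RLE and total count scaling, the 10 most abundant genes left out, no filter, at least 10 counts in every library, DESeq2 1.42.0 (the study's tool), limma-voom (limma 3.58.1), the replicate block, GC content and length offsets without and with that block, a threshold of 0.01, and each library left out, for which the lone library of a group is assumed to vary like the other group. For ratios and shares, other markers, a prior count of 0.1 in place of 1 and another length were tried. Chi-square per degree of freedom between replicates was 2.28 with FGF2 and 1.76 without FGF2, so they were kept as separate libraries. The fits were tested on simulated data with 200 genes changed. At a 2-fold change edgeR recovered 157 and DESeq2 134, with 14 and 2 false calls. At 1.2-fold edgeR recovered 38 and DESeq2 19, with 1 and 0 false calls, so most of those 200 genes were missed. In the data themselves edgeR called 6949 genes, and recovery with that many genes changed was not tested.

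The named genes are the 4 members, any gene of the partner and secreted FGF lists, up to 3 of each marker list, and the 3 genes nearest to each member in profile. Tubb3, Map2, Nefl, Kdr and Cldn5 were picked after their values were seen. Some genes of these lists are not reported here and were left out of the lists' counts and sums. The members and lists were chosen with earlier results of these data known. Sequences come from RefSeq, GRCm38.p6.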

Additional observations from a re-analysis of the deposited data

How the results depend on the processing

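The direction of all 4 FHF genes and the calls of Fgf12 and Fgf13 held under each alternative of the edgeR, DESeq2 and limma-voom fits and with each library left out. Fgf14 was called with upper quartile scaling (-0.29, adjusted p-value 0.045), with GC and length offsets (-0.41, 0.0028) and with the replicate block together with these offsets (-0.41, 0.0036), and ranged from -0.36 to -0.18 with a library left out. Fgf11 was not called with DESeq2 (-0.34), at a threshold of 0.01 (-0.33, adjusted p-value 0.013) or without no FGF2 replicate 1, and ranged from -0.37 to -0.30 with a library left out. The cause was not tested. DESeq2 called 4007 genes, 2068 higher and 1939 lower, against 6949 by edgeR.

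The deviations of same-numbered libraries from their group means correlated at 1.3e-05 over genes. With 2 libraries per group, replicate 2 mirrors replicate 1, so this is a single value. It cannot decide whether the replicate numbers mark a shared preparation. With the replicate block 6814 genes were called, and the log2 fold changes of Fgf11, Fgf12, Fgf13 and Fgf14 were -0.33, -0.50, -0.25 and -0.27, with no member's call changed.

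Against pan-neuronal markers the difference of Fgf12 turned to 0.085 with markers of at least 50 CPM and to 0.179 with EN and IN markers. Against the alpha subunits that of Fgf11 ranged from -0.046 to 0.056 and that of Fgf14 from -0.012 to 0.148 with a library left out, and the log2 fold change of Scn1a from -0.20 to 0.021. With the longest transcript as the length, the shares with and without FGF2 were 50.8% and 48.0% for Fgf13, 27.2% and 30.5% for Fgf12, 12.4% and 12.4% for Fgf11, and 9.50% and 9.08% for Fgf14. Of 41 other genes named or listed as partners, 31 kept direction and side of the threshold under the processing alternatives and 0 changed sign. With a library left out 33 did and 1 changed sign. Fgf11 and Fgf14 rest on 191 to 336 counts per library, the fewest of the 4 members, and their intervals are the widest.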

Other observations

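The RNA of genes that lie within the long FHF genes was low. Gm49069, a transcript of unknown coding status within an intron of Fgf14 and on its strand, was counted 19 and 29 times with FGF2 and 20 and 21 times without FGF2, groups that overlapped. Mir690, within Fgf12, was counted 0 and 4 times with FGF2 and 4 and 3 times without FGF2, and Mir504, within Fgf13, 4 and 0 times with FGF2 and 0 and 0 times without FGF2. The counts of Mir690 and Mir504 are at or near the floor of 3 counts. Each of the genes named here lies on the strand of its FHF gene and shares no exon bases with it. Reads of unspliced FHF RNA were not told apart from their own.

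Of the secreted FGFs, 3 of 18 were at 0 counts in every library. Scn10a, a sodium channel subunit of sensory neurons, was too low to be tested. It was counted 0 and 2 times with FGF2 and 10 and 12 times without FGF2, the same direction as the FHF genes. Scn4a, Scn7a and Scn11a, also too low to be tested, overlapped between the groups. Of 7 microglial markers 3 could be tested and 2 were higher with FGF2, with summed levels of 11.9 and 14.8 CPM against 5.81 and 6.10 CPM, and DESeq2 called 1 of them. Of 4 endothelial markers 1 of 2 tested was lower, Kdr, whose edgeR adjusted p-value was 0.048 and whose call was lost with DESeq2 (adjusted p-value 0.31), limma-voom, no filter, the replicate block, GC and length offsets, the threshold of 0.01 and without FGF2 replicate 1 or no FGF2 replicate 2, and of 5 fibroblast and mural markers 2 of 4 tested were lower and 1 higher.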
